A study of Mus musculus with 12 samples.

Results

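The cytosolic ribosome is assembled from ribosomal RNA and a fixed set of ribosomal proteins, each made from its own mRNA and most of them used once per ribosome. Proteins of the large subunit, named Rpl, form the peptidyl transferase side and the stalk that recruits elongation factors, and those of the small subunit, named Rps, hold the mRNA during decoding. Their mRNAs are among the most abundant of most cells and usually begin with a C followed by a run of C and T at the transcription start (the TOP motif), through which the mTOR pathway sets how strongly they are loaded onto ribosomes. In a photoreceptor, which renews its outer segment throughout life, ribosomes serve a large and steady synthesis of rhodopsin and other outer segment proteins.

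The genes described here are the cytosolic ribosomal protein genes in rods and retina of mice with and without pyruvate kinase M2 in rods. They were chosen by symbol only: Rpl or Rps followed by a number and an optional suffix, or Rpsa and Rplp0 to Rplp2, without the S6 kinase genes (10 symbols that begin with Rps6k), Rps19bp1 and the pseudogenes whose symbols carry -ps. The rule gave 93 of the 56748 genes of the table. Of these, 77 are canonical (46 large-subunit and 31 small-subunit genes) and 16 are paralogues or retrocopies with symbols of their own. Fau and Rack1, which also encode ribosomal proteins, are outside the rule. All 93 were in the table, 90 passed the filter on low values in each comparison, and the other 3 were almost silent: Rpl10l and Rps12l1 had 0 reads in the 12 libraries and Rpl39l had 3 in all.

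Every mouse was homozygous for the RiboTag allele, in which Cre recombinase exchanges the last exon of Rpl22 for one that carries an HA epitope, and every mouse carried the i75 rod Cre transgene, driven by a rhodopsin promoter. Control mice (RiboTag with Pkm2fl/+ and i75-Rod-Cre, labelled Pkm2_Rodhet) had 1 floxed Pkm2 allele, so that their rods lost 1 copy, and Pkm2_Rodko mice (RiboTag with Pkm2fl/fl and i75-Rod-Cre) had both. Polyadenylated RNA was sequenced before purification of HA-tagged ribosomes from the lysate (called retina) and after it (Rod-TRAP, called rods), with 3 libraries for each genotype and fraction. Retinas had been flash-frozen after cycloheximide, which stalls ribosomes on their mRNA. The series text gives an age of 2 weeks and the methods of the study 2 months. No library came from a mouse without Cre, so RNA that binds to the beads without a tagged ribosome was not measured.

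The labels were checked against Pkm and cell type markers. The deposited Pkm value was 52140.7, 51049 and 54504 in the control rods and 23751, 22552.6 and 22245.6 in Pkm2_Rodko rods, a log2 difference of -1.20 (limma adjusted p = 5.37e-05), and every knockout library lay below every control. All 10 rod markers were higher in rods than in retina in control mice, with a median log2 ratio of 1.94. The 6 Müller glia markers had a median of -2.93 and the 6 bipolar markers -3.13, and neither set was absent from rods: the summed Müller level was 7205 to 10956 scaled reads in rods against 59183 to 72686 in retina. Ddx3y, on the Y chromosome, had 0 reads in replicates 1 and 2 of the control mice in rods and in retina and 124 to 536 in the other 8 libraries, so sex differed in part with genotype, and its part in the genotype comparisons was not tested. Library totals ran from 13458890 to 22790074 reads.

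Start sites of the genes are shown first, because the TOP run is the sequence feature for which this family is known. RefSeq promoter entries (GRCm38.p6, a different build from the GRCm39 named in the submitters' notes) were found for 68 of the 93 symbols, with 80 start sites in all. A C at the annotated start followed by at least 4 further C or T was present at 15 of these 80 starts (18.8%), against 823 of 32851 starts of all genes (2.51%). A run of at least 7 C or T that begins with C, within 25 bases of the start on the coding strand, was present at 42 (52.5%) against 7483 (22.8%). An annotated start a few bases away from the true one would hide a run at the start, so the first share is a description of the annotation as much as of the genes. The windows below hold 15 bases on each side of the annotated start, with the run in capitals where it begins at the start. They show 5 genes that have it and Rpl22 and Rpl10a, which do not and whose rod-to-retina ratios were among the highest. Of the 5, Rpl35, Rpl35a and Rps15a had ratios among the lowest, so these windows do not show how run and ratio relate. Rplp2 has the run and is not shown, and its log2 ratio of 0.53 in control mice was the highest of the canonical genes with a run.
Rpl15 (chr14:18270972-18271001, minus strand): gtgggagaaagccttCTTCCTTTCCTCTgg
Rps6 (chr4:86857353-86857382, minus strand): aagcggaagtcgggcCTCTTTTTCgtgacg
Rpl35 (chr2:39005117-39005146, minus strand): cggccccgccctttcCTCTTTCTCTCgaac
Rpl35a (chr16:33056467-33056496, plus strand): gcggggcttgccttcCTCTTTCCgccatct
Rps15a (chr7:118116133-118116162, minus strand): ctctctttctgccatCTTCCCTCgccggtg
Rpl22 (chr4:152325711-152325740, plus strand): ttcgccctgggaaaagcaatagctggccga
Rpl10a (chr17:28328456-28328485, plus strand): gtggcgcccccccagcggccgcaaactgca
Rpl22, Rpl10a and Rpl35a have further annotated starts. Both starts of Rpl10a have a run of at least 7 within 25 bases, and neither start of Rpl22 does. In control mice the rod-to-retina log2 ratio had a median of 0.05 over the 13 canonical genes with a run at an annotated start and of 0.16 over the 44 with an entry but no such run, a description only.

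Together the 93 genes took 1.10% ± 0.02 (SD, n = 3) of all reads in the control rods and 1.08% ± 0.14 in Pkm2_Rodko rods. In retina they took 1.37% ± 0.08 in control mice and 1.33% ± 0.07 in Pkm2_Rodko mice. In each genotype every rod library had a lower share than every retina library, while rhodopsin alone took 11.3% ± 0.43 of control rod reads and 3.84% ± 0.38 of control retina reads, and the 100 most abundant genes of each library took 38.2% to 40.1% in rods and 24.7% to 27.03% in retina. A share of all reads and a level scaled to the bulk of genes therefore gave different orders for rods and retina, and both are given below. In such bulk samples, fewer cells of a type and less RNA per cell cannot be told apart.

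Levels differed widely among genes whose proteins are, for the most part, used in equal number. Per kilobase of the longest principal transcript, the highest canonical levels in control rods were those of Rps15 (11492 ± 933 scaled reads per kb, n = 3), Rpl10a (8622 ± 360), Rpl4 (8211 ± 174), Rpl7 (7980 ± 70.9) and Rpl9 (7929 ± 325). Of these 5, Rps15 lay clear of the others, and among the other 4 each overlapped its neighbour in the order within their SD. The median canonical level was 2524 per kb. At the low end, Rps10 had 205 reads in all 12 libraries and its pseudogene Rps10-ps2 had 5971. The order of levels was alike in both fractions, with Pearson's r of 0.96 and Spearman's rho of 0.95 between log2 levels per kb of control rods and control retina over the 77 canonical genes, which share libraries and gene lengths.

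Many of these genes have processed pseudogenes of nearly the same sequence, and how reads that match several places were counted is not given in the sources used here. The -ps pseudogenes of Rpl17 held 126% as many reads as Rpl17 itself, those of Rpl21 88.9%, those of Rps12 68.1% and those of Rpl23a 66.2%, and the values of these genes and of Rps10 are uncertain for that reason. For Rpl22, how reads over the exchanged last exon were assigned is likewise not given.

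A shift common to nearly all members set the libraries of Pkm2_Rodko rods apart, and it touches every genotype result in rods. On the scale common to all 12 libraries (recovered reads scaled by TMM, the trimmed mean of M-values), each gene's log2 level was set against its mean over the 6 libraries of the same fraction. In Pkm2_Rodko rods replicate 1, all 77 canonical genes lay above that mean, with a median of 0.20. In replicate 2 the median was 0.00, and in replicate 3 it was -0.20, with 76 of 77 genes below. Control rods lay between -0.05 and 0.06, control retina between -0.07 and 0.10, and Pkm2_Rodko retina between -0.10 and 0.08.

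The same libraries stood apart for some other lists of genes, but not for all. In Pkm2_Rodko rods replicates 1 and 3, the median of 95 nuclear oxidative phosphorylation genes was 0.22 and -0.23, that of 76 mitochondrial ribosomal protein genes 0.15 and -0.11, and that of 961 other genes with transcripts of up to 800 bases 0.19 and -0.18. The 6137 other genes with transcripts over 3000 bases had medians of -0.07 and 0.10, in the opposite direction, and 12833 other well-detected genes together stayed at 0.00 and 0.01. The 16 other mRNAs with a TOP motif moved less than the members, with medians of 0.05 and -0.06. The 25 ribosome biogenesis genes had medians of 0.00 and 0.13, so in replicate 3 they lay on the other side of 0 from the members. Of the 77 canonical genes, 33 have transcripts of up to 800 bases and the median length is 886. The part of transcript length in the shift was not tested.

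**Figure D1:**
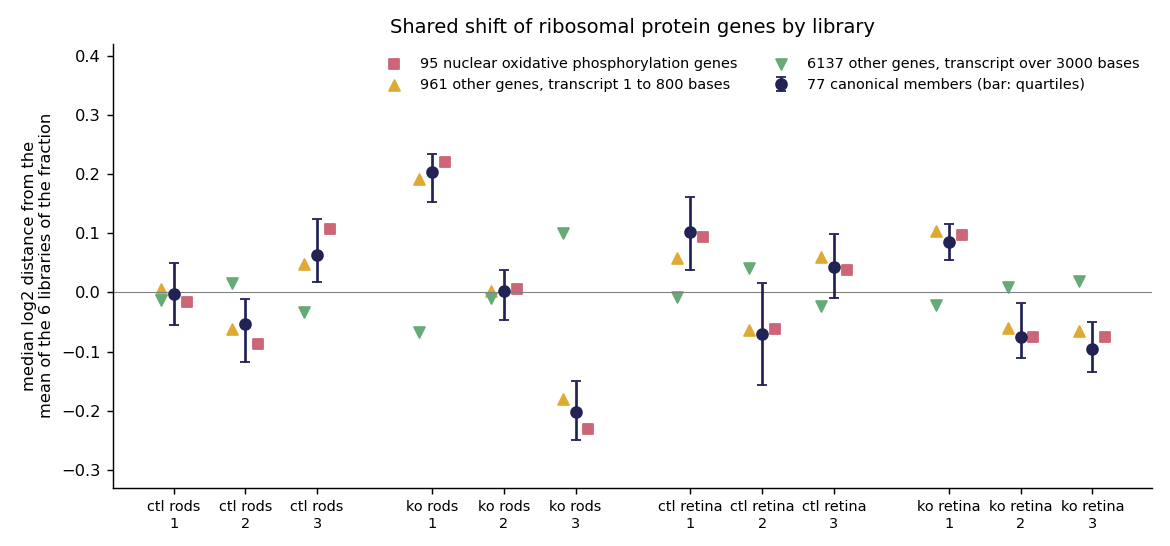
Median log2 deviation from the fraction mean (vertical axis) in each of the 12 libraries, for the 77 canonical ribosomal protein genes (with bars to the quartiles), 95 nuclear oxidative phosphorylation genes, 961 other genes with transcripts of up to 800 bases and 6137 other genes with transcripts over 3000 bases. The canonical genes rise to 0.20 in Pkm2_Rodko rods replicate 1 and fall to -0.20 in replicate 3, with the other short transcripts beside them and the long ones on the opposite side of 0.

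Loss of PKM2 was not accompanied by a detectable change of any member in rods. By limma on the deposited values, 0 of the 90 members tested passed an adjusted p of 0.05 in Pkm2_Rodko against control rods, where 0.0194% of all 20658 genes tested did. The count of members at an unadjusted p under 0.05 was also 0 by limma, by edgeR and by DESeq2, against 4.77% of all genes by limma. The median log2 difference of the 77 canonical genes was 0.01, with quartiles of -0.03 and 0.04. Among the 75 canonical genes with at least 100 reads on average, differences ran from -0.17 (Rpl36) to 0.20 (Rps27a), with a median SE of 0.11. The median over all members moved with the libraries of the shift: it was -0.08 without Pkm2_Rodko rods replicate 1 and 0.10 without replicate 3, while the count of calls stayed at 0 each time. Beside these values, markers of other retinal cells were mostly at lower levels in Pkm2_Rodko than in control rods, and 0 of them passed the adjusted threshold in limma. The median log2 difference was -0.56 for amacrine (6 of 6 negative), -0.56 for bipolar (5 of 6), -0.40 for ganglion (6 of 6) and -0.38 for Müller markers (6 of 6). The summed amacrine level was 1734 to 2361 scaled reads in control rods and 1455 to 1615 in Pkm2_Rodko rods, without overlap, while the bipolar, ganglion and Müller sums overlapped. Their part in the members' values, Rpl22 included, was not tested.

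Rpl22, whose protein carries the tag, had the smallest p of the family in rods. Its deposited values were 2105.5, 1958.1 and 2339 in control rods and 2637.8, 2437.5 and 2240.9 in Pkm2_Rodko rods. The highest control lay above the lowest knockout, so the groups overlapped. The log2 difference was 0.19 ± 0.10 (SE) (limma adjusted p = 0.932). Within the ribosomal protein reads of its own library, which removes the common shift, Rpl22 took 1.14%, 1.11% and 1.24% in control rods and 1.26%, 1.32% and 1.38% in Pkm2_Rodko rods. On that scale the groups did not overlap, but the limma difference of 0.19 ± 0.12 did not pass (adjusted p over 0.99). In retina Rpl22 took 0.84%, 0.81% and 0.78% in control mice and 0.85%, 0.86% and 0.87% in Pkm2_Rodko mice. These groups did not overlap either, with a difference on the same scale of 0.09 ± 0.09. The share of all genes with groups apart on this scale was not counted.

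The next smallest p-values in rods belonged to Rps10, which rests on 0 to 4 reads per rod library, and to Rpl37rt, a retrocopy, at -0.22 ± 0.16. Only Rpl7l1, a Rpl7 paralogue that acts in ribosome assembly, had groups that did not overlap: its deposited values were 695.8, 812.7 and 793.6 in control rods and 813, 841.4 and 826.2 in Pkm2_Rodko rods. That is 1 of 90 members, against 4.49% of all genes with groups apart in this direction. Its difference was 0.11 ± 0.10 (limma adjusted p = 0.932). Rps27a, made as a fusion with ubiquitin, had deposited values of 3627.2, 2090.2 and 2000.9 in Pkm2_Rodko rods against 2093.9 to 2184.2 in control rods, so its difference rested on replicate 1 alone.

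Rpl37 was the reference gene in one quantitative PCR experiment of the study, on retinal mRNA of these genotypes. Its deposited values were 1090.5, 948.4 and 1178.1 in control rods and 1280.4, 1095.5 and 910.9 in Pkm2_Rodko rods, and the groups overlapped fully. The log2 difference was 0.02 ± 0.13 in rods and -0.10 ± 0.09 in retina, both far from the threshold. Rplp1 and Rpl4 lie on chromosome 9 as Pkm does, 2.26 and 4.52 Mb from it on GRCm38. Their genotype differences were 0.00 ± 0.14 and -0.01 ± 0.08 in rods and 0.19 ± 0.14 and -0.06 ± 0.07 in retina, none past the threshold.

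**Figure D2:**
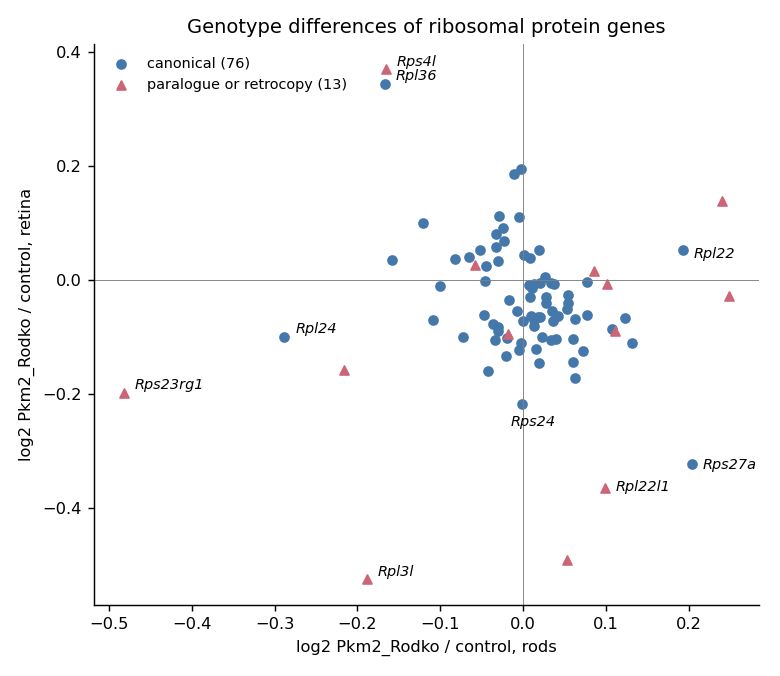
Log2 difference of Pkm2_Rodko from control mice in rods (horizontal axis) and in retina (vertical axis) for 89 tested members, from limma on the deposited values. The points gather around 0 on the rod axis and slightly below 0 on the retina axis, and none passed the adjusted threshold. Rps10, with 205 reads in all, lies outside the axes and is not drawn.

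In retina, 0 of 90 members passed the adjusted threshold, against 0.00391% of all 25590 genes tested. At an unadjusted p under 0.05 there were 2 higher and 3 lower members by limma (5 of 90, against 4.18% of all genes), 0 and 3 by edgeR, and 1 and 3 by DESeq2. The median of all 90 members was -0.06, and 65 of them were negative, but the median ran from -0.10 to -0.02 when single libraries were left out. The summed Müller marker level also differed, at 65948 to 72686 scaled reads in control and 59183 to 64155 in Pkm2_Rodko retina, which do not overlap. Its part in the members' values was not tested.

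Rpl22l1, the paralogue that can replace Rpl22 in the large subunit, had the smallest p in retina. Its deposited values were 800.7, 748.2 and 633 in control retina and 628.7, 514.6 and 548.8 in Pkm2_Rodko retina. All 3 knockout libraries lay below the lowest control, though by little in replicate 1. The log2 difference was -0.36 ± 0.11 (limma adjusted p = 0.947). Rps24 and Rps15a, both in the small subunit, were the other members whose retina groups did not overlap, also lower in Pkm2_Rodko mice, at -0.22 ± 0.08 and -0.13 ± 0.07. These 3 of 90 stand against 4.76% of all genes with groups that do not overlap in this direction. Rps27a differed by -0.32 ± 0.11, Rpl36 by 0.34 ± 0.15 and Rps4l by 0.37 ± 0.17, all with overlapping groups and an adjusted p of 0.947.

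The genotype effect in rods minus that in retina was tested in 1 limma fit of the 4 group means, and 0 of 90 members passed (0% of all 25478 genes). At an unadjusted p under 0.05 there were 2 members, Rpl22l1 (0.47 ± 0.16, limma adjusted p = 0.978) and Rps10 (1.57 ± 0.73), against 4.43% of all genes. Rpl22l1 in scaled reads was 587, 602 and 582 in control rods and 688, 642 and 562 in Pkm2_Rodko rods, which overlap, and 669, 618 and 524 in control retina against 520, 424 and 445 in Pkm2_Rodko retina. Rps27a followed at 0.53 ± 0.25 and Rpl22 was at 0.15 ± 0.13. The median of the members was 0.08, and without Pkm2_Rodko rods replicate 1 it was -0.04.

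Between rods and retina, the direction for the family as a whole depended on the scale. With TMM over all 12 libraries, 32 members were higher and 5 lower in rods than in retina of control mice (limma adjusted p under 0.05, 90 tested). Of all 25478 genes tested, 23.6% were higher and 35.7% lower. Among the 12918 genes with at least 10 reads in every library, which are nearer to these abundant genes, 44.7% were higher and 27.4% lower. With the replicate number as a block, which pairs rods with retina of the same number, the counts were 41 and 10. The median log2 ratio of the members was 0.16, against -0.37 for all genes, 0.24 for the well-detected genes and 0.49 for the 1625 genes with levels between the quartiles of the canonical members. In Pkm2_Rodko mice 36 members were higher and 1 lower, or 45 and 3 with the block, and the median was 0.19. There 24% of all genes were higher and 35.3% lower, and of the well-detected genes 45.8% and 27.2%. Rods lay wholly above retina for 34 members and wholly below for 10 in control mice, against 25.3% and 36.8% of all genes. In Pkm2_Rodko mice they did so for 34 and 1, against 26.4% and 36.8%.

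Other scalings moved the whole table as well as the members. The median log2 ratio of all genes in control mice was -0.37 with TMM, -0.76 when libraries were scaled by total reads and -0.80 on the deposited values, which were scaled in each fraction alone. Scaled by total reads, the members gave 2 higher and 56 lower in control mice, with a median of -0.38, against 8.43% and 49.1% of all genes. In Pkm2_Rodko mice they gave 2 and 56, with a median of -0.40, against 8.49% and 48.8%. On the deposited values the counts were 2 and 65 in control mice (7.48% and 50.7% of all genes) and 2 and 57 in Pkm2_Rodko mice (8% and 49.4%). On each of these scales the median of the members lay above that of all genes, many of which have few reads. Against genes nearer in level the order was the other way on the TMM scale. In control mice the members were at 0.16, the well-detected genes at 0.24 and the genes between the canonical quartiles at 0.49. In Pkm2_Rodko mice these medians were 0.19, 0.26 and 0.53. Medians of these 2 backgrounds under the other scalings were not computed.

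The call held under each of 6 scalings (TMM with and without these genes, RLE, total reads, deposited values and the canonical ribosomal protein reads) for 7 members in control mice: Rpl10a and Rps4l higher, and Rpl10, Rpl35a, Rpl37, Rps10 and Rps15a lower. Another 15, among them Rps6, Rpl5 and Rpl11, were higher under one scaling and lower under another. In Pkm2_Rodko mice Rpl22 and Rps4l were higher and Rps10 lower under all 6, and 10 members changed direction with the scaling. The shares of all genes that keep or change their call in this way were not counted, so these counts have no background. TMM with and without these genes gave nearly the same values (member medians of 0.163 and 0.166 in control mice).

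**Figure D3:**
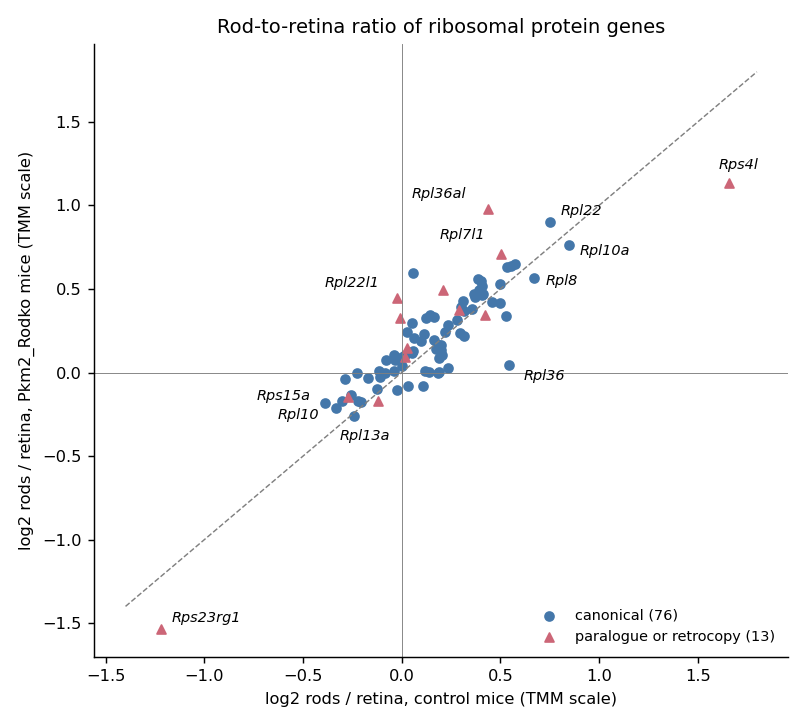
Log2 ratio of rods to retina in control mice (horizontal axis) and in Pkm2_Rodko mice (vertical axis) on the TMM scale for 89 tested members. The points lie along the diagonal, with Rps4l, Rpl10a and Rpl22 at the upper end. Rps23rg1, with 60 reads in all, is the lowest point drawn on both axes. Among members with a mean of at least 100 reads, Rps15a and Rpl10 are lowest on the control axis. Rps10, with 205 reads in all, lies outside the axes and is not drawn.

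Rpl22 was among the members most raised in rods. In scaled reads it was at 2634, 2445 and 2954 in control rods and at 3315, 3024 and 2786 in Pkm2_Rodko rods. Control retina had 1727, 1512 and 1533, and Pkm2_Rodko retina 1742, 1584 and 1563. Every rod library lay above every retina library, in both genotypes. The log2 ratio was 0.75 ± 0.09 in control mice (limma adjusted p = 3.34e-06) and 0.90 ± 0.09 in Pkm2_Rodko mice (adjusted p = 3.92e-07). Scaled by total reads, the ratio was 0.20 in control mice, no longer past the threshold, and 0.31 in Pkm2_Rodko mice, still past it. Among the ribosomal protein reads alone it was 0.52 and 0.61 in the respective genotypes, both past it. Its paralogue Rpl22l1 was at -0.03 ± 0.11 in control mice (adjusted p = 0.862) and 0.45 ± 0.11 in Pkm2_Rodko mice (adjusted p = 0.0027), and the interaction above gives the difference of these ratios, which did not pass.

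Rpl10a and Rpl8 sit in the large subunit, Rpl10a on the mobile stalk beside the tRNA exit and Rpl8 close to the peptidyl transferase centre. Rpl10a had 6154, 6115 and 6588 scaled reads in control rods and 6760, 6251 and 5496 in Pkm2_Rodko rods, against 3497, 3376 and 3593 and then 3819, 3560 and 3475 in the respective retinas. Rpl8 had 7560, 6619 and 7669 in control rods against 4574, 4168 and 4977 in control retina. For both genes the rods lay wholly above the retina. The log2 ratios were 0.85 ± 0.08 for Rpl10a and 0.67 ± 0.10 for Rpl8 in control mice (adjusted p = 1.72e-07 and 2.84e-05 by limma), and 0.77 and 0.57 in Pkm2_Rodko mice. Rpl27 was at 0.57 ± 0.12 and 0.65 ± 0.12 in these genotypes. Scaled by total reads, Rpl10a kept its call in control mice only, at 0.30, and Rpl8 (0.12 and -0.02) and Rpl27 (0.02 and 0.06) kept it in neither.

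The highest ratio of the family was that of Rps4l, a transcribed retrocopy of Rps4x on chromosome 6 that consists of 1 exon. It had 981, 835 and 1219 scaled reads in control rods, 1070, 914 and 711 in Pkm2_Rodko rods, 270, 261 and 447 in control retina and 413, 400 and 399 in Pkm2_Rodko retina. The groups did not overlap between fractions, although both control groups varied widely. The log2 ratio was 1.66 ± 0.19 in control and 1.13 ± 0.19 in Pkm2_Rodko mice (limma adjusted p = 1.91e-06 and 9.41e-05). Rps4x itself, the X-linked parent, was lower in rods than the family as a whole, at -0.34 ± 0.09 and -0.31 ± 0.09 when scaled to the ribosomal protein reads.

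At the other end were small and large subunit genes alike. Rps15a had 1976, 2274 and 2036 scaled reads in control rods against 2876, 2794 and 2564 in control retina, so all control rods lay below all control retinas. In Pkm2_Rodko mice the rods had 2464, 2098 and 2021 and the retinas 2522, 2527 and 2408, and these overlapped. The log2 ratio was -0.39 ± 0.09 in control mice (limma adjusted p = 0.00101) and -0.18 ± 0.09 in Pkm2_Rodko mice (adjusted p = 0.0755, or 0.0341 with the replicate block). Rpl37 had 1364, 1184 and 1488 in control rods and 1846, 1497 and 1635 in control retina, just apart, with a ratio of -0.30 ± 0.12 (adjusted p = 0.0444) that no longer passed without control rods replicate 1 or 2, without control retina replicate 1 or 3, with no filter, or with a pseudocount of 0.1. In Pkm2_Rodko mice it was at -0.17 ± 0.12 (adjusted p = 0.241).

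Rpl10, an X-linked gene whose protein joins late in large subunit assembly, was at -0.33 ± 0.12 in control mice (adjusted p = 0.0255, groups overlapping). Its call was lost without control rods replicate 1 or 2 or control retina replicate 1 or 3. Rpl35 and Rpl35a, the former at the peptide exit tunnel, were at -0.29 ± 0.13 (adjusted p = 0.0702, or 0.00463 with the block) and -0.26 ± 0.10 (adjusted p = 0.0365). The call of Rpl35a was lost when replicate 1 or 3 of control rods or control retina was left out. Rps10 had 2, 0 and 1 reads in control rods against 35, 34 and 42 in control retina, and 2, 4 and 4 against 20, 42 and 19 in Pkm2_Rodko mice. These few reads lay lower in rods in all libraries, but most reads of its sequence were counted for a pseudogene.

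**Figure D4:**
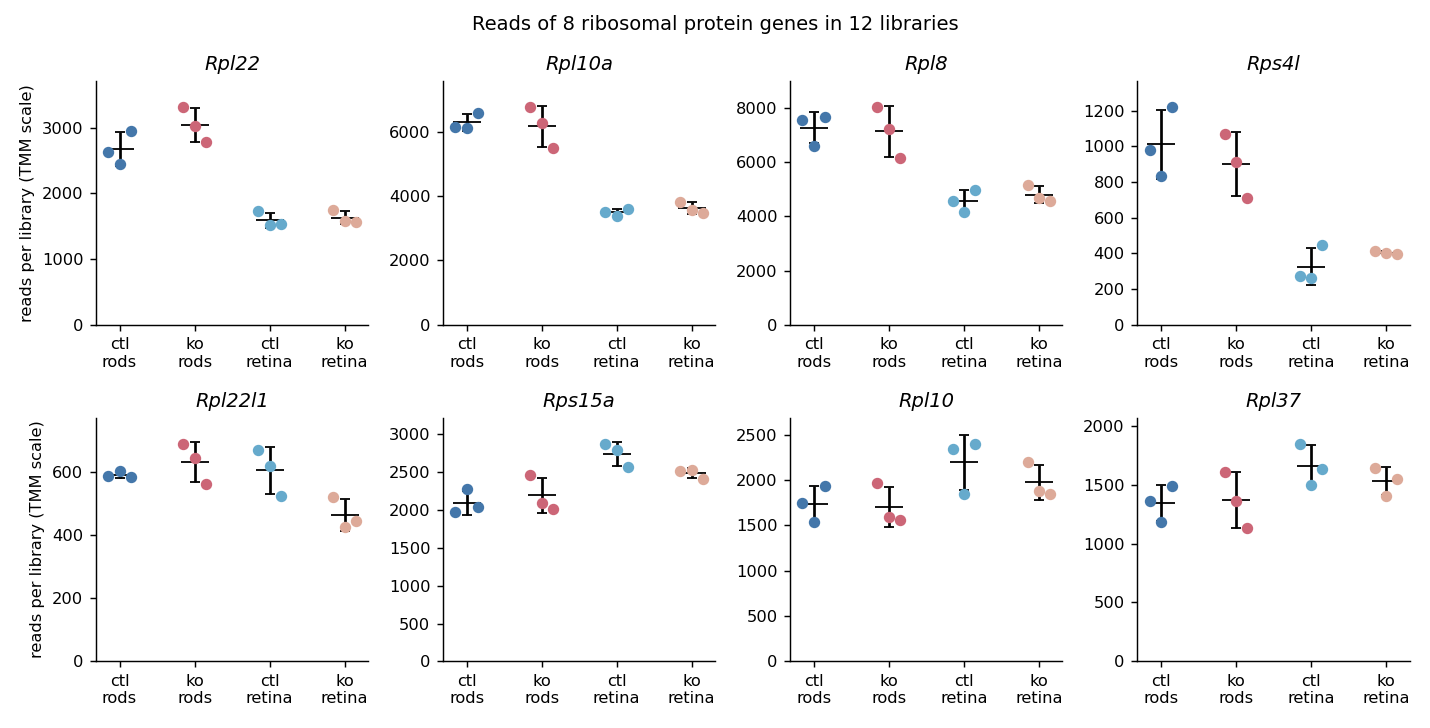
Scaled reads (TMM over 12 libraries, linear axis) of Rpl22, Rpl10a, Rpl8, Rps4l, Rpl22l1, Rps15a, Rpl10 and Rpl37 in each of the 12 libraries, with the mean ± SD of each group of 3. Rpl22, Rpl10a, Rpl8 and Rps4l lie higher in rods than in retina in both genotypes, while Rps15a lies lower in control rods than in control retina.

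Scaled to the canonical ribosomal protein reads of each library, which removes the common shift, the members could be compared with each other. The 0 of this scale is set by the summed reads, in which abundant genes weigh most. The median of the members was -0.06 in control and -0.09 in Pkm2_Rodko mice, and the calls depend on where that 0 lies. On this scale 8 were higher in rods than in retina in both genotypes (Rpl10a, Rpl19, Rpl22, Rpl27, Rpl7, Rpl8, Rpl9 and Rps4l). Another 16 were lower in both, and 0 were higher in one genotype and lower in the other. The share of all genes called alike in both genotypes was not counted. The counts within each genotype were 10 higher and 19 lower in control mice (14.8% and 38.4% of all genes on this scale) and 12 and 25 in Pkm2_Rodko mice (14.2% and 39%). Among the 16 were Rpl10 (-0.56 and -0.50 in control and Pkm2_Rodko mice), Rps15a (-0.62 and -0.47), Rpl37 (-0.53 and -0.46) and Rpl12 (-0.45 and -0.46). The control and Pkm2_Rodko ratios came from separate libraries of each genotype, and over the 77 canonical genes they had a Pearson's r of 0.93 and a Spearman's rho of 0.85, given as a description because the points share libraries.

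**Figure D5:**
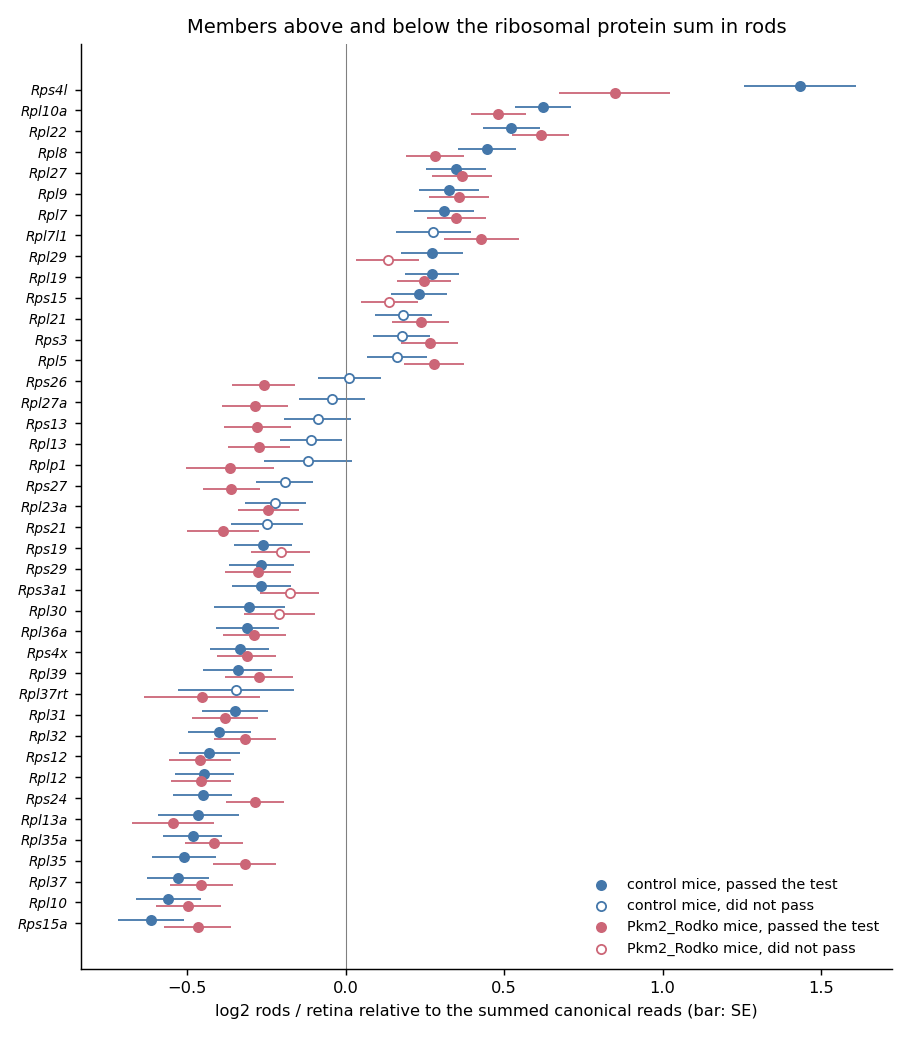
Log2 ratio of rods to retina after scaling each library to its canonical ribosomal protein reads, with SE bars, for 41 members that passed in control or Pkm2_Rodko mice; filled points passed an adjusted p of 0.05. Rps4l, Rpl10a and Rpl22 stand at the high end and Rps15a, Rpl10 and Rpl37 at the low end in both genotypes. Rps10 is left out.

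In the same terms, Rpl10a took 2.66%, 2.77% and 2.76% of canonical ribosomal protein reads in control rods and 1.69%, 1.81% and 1.82% in control retina. Rpl37 took 0.59%, 0.54% and 0.62% in control rods and 0.89%, 0.80% and 0.83% in control retina. Large subunit genes together took 58.3% to 58.9% of these reads in the 6 rod libraries and 55.8% to 57.0% in the 6 retina libraries, which do not overlap. A sum weighs abundant genes most, and gene by gene the order of the subunits was not steady. On the TMM scale the median log2 ratio of canonical genes was 0.18 for large and 0.14 for small subunit genes in control mice. In Pkm2_Rodko mice it was 0.15 and 0.19. By coding length, the median log2 ratio in control mice was 0.01 for the 26 genes with the shortest coding sequences, 0.18 for the middle 25 and 0.23 for the 26 longest. Over the 77 genes, ratio and coding length had a Pearson's r of 0.13 and a Spearman's rho of 0.30, and ratio and transcript length 0.00 and 0.08. For ratio and log2 level in control retina they were 0.55 and 0.24. None of these relations was tested.

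Of the 5S particle proteins, which also bind Mdm2 when assembly fails, Rpl5 had 4732, 4818 and 4740 scaled reads in control rods against 3802, 3649 and 3475 in control retina, and Rpl11 had 3183, 3148 and 3437 against 2730, 2431 and 2404. Rods lay above retina for both. Their log2 ratios were 0.39 ± 0.07 and 0.37 ± 0.10, and 0.56 and 0.45 in Pkm2_Rodko mice, all past the threshold on the TMM scale, and in control mice both turned lower under another scaling, as given above. Of the 3 stalk proteins, Rplp2 was at 0.53 ± 0.16 in control mice (limma adjusted p = 0.00895) and 0.34 ± 0.16 in Pkm2_Rodko mice (adjusted p = 0.0768, or 0.00501 with the replicate block). Rplp0 was at 0.20 ± 0.14 in control mice (adjusted p = 0.218, or 0.0192 with the block) and Rplp1 at 0.11 ± 0.17.

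Rps6, the target of the S6 kinases, was at 0.23 ± 0.09 in control and 0.28 ± 0.09 in Pkm2_Rodko mice (limma adjusted p = 0.0307 and 0.0107). Both fell under other scalings, as given above, and its TOP run is among the sequences shown. Of 9 members whose mutation causes Diamond-Blackfan anaemia in people, 4 were higher and 2 lower in control rods, with a median of 0.22, and 4 and 1 in Pkm2_Rodko rods. Rps10, with 205 reads in all, was 1 of the lower genes in control mice and the only one in Pkm2_Rodko mice, and it is not among the well-detected genes. Of all well-detected genes, 44.7% were higher and 27.4% lower in control mice, and 45.8% and 27.2% in Pkm2_Rodko mice. Rps19, the most often affected of them, was at -0.04 ± 0.11.

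Among the 16 paralogues and retrocopies, 13 passed the filter on low values. In control mice 3 of them were higher in rods and 0 lower (Rps4l, Rpl7l1 and Rps27l), and in Pkm2_Rodko mice 4 were higher (Rps4l, Rpl7l1, Rpl22l1 and Rpl6l). Of all genes 23.6% were higher in control and 24% in Pkm2_Rodko mice, so the counts of higher paralogues are near the background. Rpl7l1 had 870, 1015 and 1002 scaled reads in control rods and 723, 664 and 648 in control retina, wholly apart, at a log2 ratio of 0.50 ± 0.08 and at 0.71 ± 0.08 in Pkm2_Rodko mice (limma adjusted p = 0.0001 and 2.53e-06). Rps27l, a p53-responsive relative of Rps27, was at 0.42 ± 0.16 in control (adjusted p = 0.0299) and 0.35 ± 0.16 in Pkm2_Rodko mice (adjusted p = 0.0696, or 0.048 with the block). Rpl6l was at 0.29 ± 0.13 (adjusted p = 0.0712) and 0.38 ± 0.13 (adjusted p = 0.0229).

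Rps3a2, Rps27rt and Rpl37rt were at 0.03 ± 0.13, 0.02 ± 0.17 and -0.12 ± 0.19 in control mice. Rps3a3 (261 reads in all), Rpl36al (165), Rpl32l (65), Rps23rg1 (60) and Rpl3l (19) were low in all libraries.

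Related genes outside the family were compared on the TMM scale, on which 44.7% of well-detected genes were higher and 27.4% lower in control mice, and 45.8% and 27.2% in Pkm2_Rodko mice. Of the mitochondrial ribosomal protein genes, which serve the separate ribosome of the mitochondrion, 58 of 77 tested were higher in control rods and 0 lower, with a median log2 ratio of 0.53, and 59 were higher in Pkm2_Rodko rods, with a median of 0.65. Ribosome biogenesis factors had 19 of 25 higher and 1 lower (median 0.64) in control and 21 and 1 (median 0.80) in Pkm2_Rodko mice. Bysl, needed for small subunit maturation, was at 1.39 ± 0.09 and Wdr12, needed for the large subunit, at -0.38 ± 0.12 in control mice. Other mRNAs with a TOP motif had 12 of 16 higher (median 0.45) and 14 of 16 (median 0.48) in these genotypes, with Eif3e, an initiation factor subunit, at 0.88 ± 0.08 and the elongation factor gene Eef1a1 at 0.08 ± 0.07 in control mice.

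The mTOR and S6 kinase genes had 5 of 11 higher and 1 lower in each genotype. The share of higher genes was near that of all well-detected genes (44.7% in control and 45.8% in Pkm2_Rodko mice). Mlst8, an mTOR complex subunit, was at 0.71 ± 0.09 and Mtor at -0.07 ± 0.14 in control mice. The one lower gene was Eif4ebp2, a repressor of cap-dependent initiation, at -0.72 ± 0.09. Of the ribosomal proteins outside the rule, Fau was at 0.62 ± 0.14 and Rack1 at 0.48 ± 0.07, both past the threshold. Of 191 ribosomal protein pseudogenes tested, 34 were higher and 1 lower in control rods, with a median of 0.24. Many genes of this list have few reads, and of all 25478 genes tested 23.6% were higher and 35.7% lower. Between genotypes, 0 genes of any of these lists passed the adjusted limma threshold in rods or in retina.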

How the data were processed

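RNA of rods (Rod-TRAP) and of whole retina was sequenced in control and Pkm2_Rodko mice, 3 libraries a group, grouped by the sample labels. The deposited table holds a signal for each gene and library. The authors made it by dividing read counts by size factors, computed by the median-of-ratios method in each fraction (6 libraries) alone, and rounding to 1 decimal. The submitters' processing notes name CASAVA 1.8.2, HISAT2, DESeq2, edgeR and the build GRCm39. The annotation, the counting rule and the use of strand are not given in the sources used here. Dividing by the value of 1 read returned whole reads, within 0.051, for 99.9996% of positive values (99.9952% to 100% per library).

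The design allowed for scaled values, so limma 3.58.1 (R 4.3.3, two-sided, variance trend, Benjamini-Hochberg adjustment over all genes tested, threshold 0.05) was the test throughout. Genotypes were compared within a fraction on log2(value + 1), for genes with a mean of at least 1 in 1 genotype. Rods and retina, and the genotype effects of both fractions, were compared in 1 fit of 4 group means on recovered reads scaled by TMM over 12 libraries (edgeR 4.0.16), also as log2(x + 1), so that differences of low genes are understated. edgeR's quasi-likelihood test and DESeq2 1.42.0 on recovered reads were alternatives. Values were recovered in Python 3.11.15 (pandas 2.3.3, numpy 2.4.6) and drawn with matplotlib 3.10.9. The fits were also run on simulated data, in which genes varied independently. The simulation held no shift common to the genes of a library, so it does not cover the shift seen in Pkm2_Rodko rods.

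Rods and retina of the same replicate number deviated together from their group means (r of 0.163, 0.398 and 0.383 in control and 0.317, 0.171 and 0.342 in Pkm2_Rodko mice, each the highest for its library), so the numbers pair rods with retina, and a fit with the number as a block is given beside those results. The labels do not say that libraries are separate mice, so p-values measure the spread between these samples, which may be technical. Totals of 13458890 to 22790074 reads and 3 libraries a group set the precision. Transcript lengths came from GENCODE vM21 (GRCm38) by gene identifier, for 91.8% of genes, and start sites from RefSeq GRCm38.p6 by symbol.

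The members, gene lists and markers were chosen with earlier results of these data known. Genes named are Pkm, Rpl22, Rpl22l1, Rpl37, Rplp1, Rpl4, the paralogues and retrocopies, the 5 members with the highest and the 5 with the lowest ratio of rods to retina in control mice (mean of at least 100 reads), the 3 with the smallest p in each genotype comparison, the 5 highest levels per kb in control rods, and examples of each role. Ddx3y, Rpl17, Rpl21, Rpl23a, Rpl36, Rpl12 and Rpl7l1 in rods were named after their values were seen. Scaling to the canonical ribosomal protein reads, and TMM without these genes, were added after seeing the data.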

Additional observations from a re-analysis of the deposited data

How the results depend on the processing

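In the genotype comparisons of rods and of retina and in their difference, 0 members were called under every alternative run, with 0 to 0 when single libraries were left out, and with the replicate number as a block also 0 in each. Same-numbered libraries of the 2 genotypes did not deviate together (r from -0.236 to 0.109), so those numbers are not pairs. The counts for rods against retina depended on the scaling. In control mice, where TMM gave 32 higher and 5 lower, total reads gave 2 and 56, the deposited values 2 and 65, RLE 24 and 9, DESeq2 24 and 10, the replicate block 41 and 10, and scaling to the canonical ribosomal protein reads 10 and 19. In Pkm2_Rodko mice, where TMM gave 36 and 1, they gave 2 and 56, 2 and 57, 30 and 3, 30 and 4, 45 and 3, and 12 and 25, and a minimum of 10 reads in every library gave 0 lower because Rps10 was removed. edgeR gave 32 and 7, and 34 and 1. The cause of these changes was not tested.

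The median log2 ratio of the members was 0.163 in control and 0.189 in Pkm2_Rodko mice with TMM, -0.383 and -0.395 with total reads, -0.428 and -0.414 on the deposited values, and -0.0631 and -0.094 when scaled to the canonical reads. Leaving out 1 library gave 22 to 31 higher and 2 to 7 lower in control mice, and 25 to 44 higher and 1 to 7 lower in Pkm2_Rodko mice, where 7 lower came without rods replicate 1. The lower count in control mice was 2 without rods replicate 1 or without retina replicate 1 or 3, and 3 without rods replicate 2. The medians then ran from 0.0996 to 0.189 and from 0.0728 to 0.309. Those of the genotype comparisons ran from -0.0847 to 0.103 in rods, from -0.102 to -0.0152 in retina and from -0.0362 to 0.171 for their difference.

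Of 41 results for named members, alternatives kept direction and call 604 times, gained a call 35 times, lost it 32 times and reversed a ratio that was called in at least one of the settings 18 times, each with total reads or the deposited values. Ratios not called in either setting changed sign 6 times, 5 of them with 1 library left out: the leave-one-out ranges were -0.0716 to 0.28 (Rplp1) and -0.124 to 0.0525 (Rpl22l1) in control mice, and -0.28 to 0.0755 (Rplp1) and -0.202 to 0.116 (Rpl35) in Pkm2_Rodko mice, and Rplp1 in control mice was -0.12 when scaled to the canonical reads. With total reads and then the deposited values, the reversed ratios in control mice were -0.143 and -0.188 (Rpl4), -0.0148 and -0.0599 (Rpl7), -0.444 and -0.489 (Rplp1) and -0.0937 and -0.139 (Rps15), and on the deposited values alone -0.0217 (Rpl27) and -0.0444 (Rpl9). In Pkm2_Rodko mice they were -0.138 and -0.156 (Rpl22l1), -0.121 and -0.14 (Rpl4), -0.0198 and -0.0387 (Rpl8) and -0.164 and -0.183 (Rps15). Rps10 and the sparse paralogues are limited by their few reads.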
